A study of Mus musculus with 9 samples.

Results

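P2rx2, P2rx4, Entpd2 and Piezo1 were examined in Reissner's membrane of adult mice, the thin sheet that separates endolymph from perilymph in the cochlea. P2rx2 and P2rx4 encode subunits of P2X receptors, Entpd2 encodes an ecto-nucleotidase and Piezo1 encodes a mechanically gated channel. The 4 genes were chosen by name, with earlier results of these data known. All 7 probe sets annotated to 1 of them alone were taken. The array held 18193 genes with a single symbol and 45101 probe sets. P2rx4 had 4 probe sets and each of the other genes had 1.

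The membrane was dissected by hand. RNA was taken from it at once (fresh), after 24 h as an explant (incubated), or after 24 h as an explant with dexamethasone, a synthetic glucocorticoid drug, at 100 nM. Each group had 3 arrays, lettered A to C, so 9 in all. Membranes were pooled and the pools were spread over 3 chips per biological sample, per the design text. The p-values therefore rest on differences among chips alone, possibly of technical origin, and the number of arrays limits the precision. The labels used here give no strain or genotype, and those of dexamethasone arrays B and C type the dose in mM, where array A and the design text have nM.

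As background, cells release ATP when they are stretched, damaged or depolarised, and the ATP acts on receptors at the cell surface. P2X receptors are trimeric cation channels that open when they bind ATP, P2Y receptors are coupled to G proteins, and ecto-nucleotidases end the signal by splitting ATP. In the cochlea, P2X2 channels in cells that line the endolymph let cations leave that fluid when ATP is present. PIEZO1 opens when the membrane is under tension, and in several epithelia and in endothelium it links stretch to calcium entry.

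The 250 bases before the annotated start were read for the genes with an entry in the RefSeq promoter table (build GRCm38.p6), which were 3 of the 4. They are shown because Entpd2, P2rx4 and Piezo1 were all higher in culture, while only Piezo1 of these was also higher with dexamethasone. Each is written 5′ to 3′ on the strand of the gene, with matches to AP-1, GC box and TATA box letters in capitals.
Entpd2, chr2:25395624-25395873, plus strand: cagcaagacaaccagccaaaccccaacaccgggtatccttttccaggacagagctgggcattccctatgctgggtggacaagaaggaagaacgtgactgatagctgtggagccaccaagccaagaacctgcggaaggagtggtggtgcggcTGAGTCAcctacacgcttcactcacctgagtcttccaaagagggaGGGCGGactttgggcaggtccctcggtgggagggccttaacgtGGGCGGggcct
P2rx4, chr5:122707294-122707543, plus strand: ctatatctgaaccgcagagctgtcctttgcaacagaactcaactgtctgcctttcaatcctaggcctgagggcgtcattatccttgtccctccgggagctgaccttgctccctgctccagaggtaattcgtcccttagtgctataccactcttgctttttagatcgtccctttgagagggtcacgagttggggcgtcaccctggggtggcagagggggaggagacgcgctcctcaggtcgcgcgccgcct
Piezo1, chr8:122551330-122551579, minus strand: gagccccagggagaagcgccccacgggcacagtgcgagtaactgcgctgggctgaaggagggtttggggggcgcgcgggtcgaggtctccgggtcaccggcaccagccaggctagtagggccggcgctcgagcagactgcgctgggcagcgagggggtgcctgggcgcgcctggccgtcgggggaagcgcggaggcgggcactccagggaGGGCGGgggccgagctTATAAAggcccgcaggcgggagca

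In the Entpd2 window the AP-1 letters TGANTCA, searched on both strands, matched once, with the match starting at position -99, where -1 is the base just before the start. Of all 32851 windows of this length, 6.75% held such a match. The GC box letters GGGCGG matched at -54 and -11 in Entpd2 and at -40 in Piezo1, and 32.7% of all windows held them. The TATA box letters TATAAA matched at -24 in Piezo1, and 12.4% of all windows held them. The P2rx4 window held none of these. The glucocorticoid half-site AGAACA was found in none of the 3 windows and in 16.1% of all. The full glucocorticoid response element, which is this half-site and its reverse complement with 3 free bases between them, was likewise found in none of the 3 and in 0.00913% of all. None of the capitalised matches overlapped another. The G and C content was 74.0% for Piezo1, 59.2% for Entpd2 and 57.2% for P2rx4, against a median of 52.4% over all windows. A match is a description of letters, not of a bound site.

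Array signals were on a linear scale on which the trimmed mean of every array was 500, and 200 was used as a working floor because no detection calls were used. Between 36.0 and 39.4% of probe sets reached 200 on an array. The probe sets that stood for P2rx2, P2rx4, Entpd2 and Piezo1 exceeded 200 on all 9 arrays, so none of the 4 was tested only because it was high in 1 group. Changes are log2 differences of group means of log2(signal + 32) ± SE, n = 3 per group, from limma fitted once to 18913 probe sets, and a gene was called at an adjusted p under 0.05. The scale understates the change of low signals.

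All 4 genes were higher in incubated than in fresh membrane, in a comparison in which 36.0% of 10242 genes were called higher and 40.7% lower. For all 4 the incubated arrays lay above the fresh arrays without overlap, as for 35.7% of probe sets. With dexamethasone, P2rx2 and Piezo1 rose further, 2 of the 4, where 22.3% of genes were called higher than in untreated explants and 28.7% lower. P2rx4 and Entpd2 did not pass the test between the 2 explant groups.

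The choice of scale weighs on the dexamethasone comparison. Hybridization controls are bacterial and phage transcripts added to the hybridization mix. Scaling the arrays to these controls, in place of the whole array, moved the median change of all genes from -0.03 to -0.51 for dexamethasone against incubated and from -0.04 to 0.29 for incubated against fresh. Probe sets called higher and lower with dexamethasone went from 5116 and 4820 (27.1% and 25.5% of those tested) to 1232 and 13733. Those on incubation went from 6620 and 7593 (35.0% and 40.1%) to 9894 and 4279. The changes given here are relative to the whole array. For P2rx2, P2rx4, Entpd2 and Piezo1 the change with dexamethasone against incubated explants is given on both scales. On incubation hybridization-control scaling gave 2.25 for P2rx2, 0.82 for P2rx4, 1.13 for Entpd2 and 0.56 for Piezo1, each called higher.

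P2rx2 encodes the P2X2 subunit, which forms slowly desensitising ATP-gated channels. Its signals in arrays A, B and C were 1940.3, 2090.1 and 2181 in fresh membrane. They were 8138, 7781 and 7904 in incubated membrane and 11262, 10981 and 11559 with dexamethasone. The 3 groups did not overlap, and every explant array lay far above every fresh array. P2rx2 rose by 1.92 ± 0.050 on incubation (limma adjusted p = 4.85e-12), which is 3.84-fold as a ratio of mean signals. The rise exceeded that of 98.5% of the genes tested, with a rank of 149 among 10242.

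With dexamethasone P2rx2 rose by a further 0.50 ± 0.050 (limma adjusted p = 5.05e-06), a ratio of mean signals of 1.42. The groups did not overlap, as was the case with the dexamethasone arrays higher for 30.2% of all probe sets. With hybridization-control scaling the P2rx2 difference was 0.03 (adjusted p = 0.743), so the call was lost.

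P2rx4 encodes the P2X4 subunit, an ATP-gated channel of high calcium permeability that also resides in lysosomes. The tested probe set, 1425525_a_at, gave 882.8, 835.6 and 929.3 in fresh membrane, 1266, 1208.5 and 1279.8 after incubation and 1382, 1253 and 1293 with dexamethasone. Fresh arrays were the lowest and did not overlap either explant group, whereas the 2 explant groups overlapped each other. P2rx4 rose by 0.49 ± 0.063 on incubation (limma adjusted p = 1.19e-05), a ratio of mean signals of 1.42. The difference between dexamethasone and incubated arrays was 0.06 ± 0.063 (limma adjusted p = 0.42), with a 95% interval of -0.07 to 0.20. With hybridization-control scaling it turned to -0.41 (adjusted p = 1.35e-04).

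The other 3 probe sets of P2rx4 lay under 200 on every array, between 50.1 and 161.6, and were not tested. In 1452527_a_at the fresh mean was 94.6 ± 41.4 and the incubated mean 149 ± 12 (SD, n = 3), with fresh array A inside the incubated range. In 1446429_at the order was the opposite, 103.8 ± 24.4 in fresh and 65.6 ± 13.3 in incubated arrays. In 1441772_at the 3 groups overlapped, with means of 66.2, 65.6 and 78.4. The rise of P2rx4 thus rests on 1 probe set.

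Entpd2 encodes an ecto-nucleotidase that prefers ATP over ADP and so produces ADP outside the cell. Its signals were 246.1, 246.4 and 241.8 in fresh membrane, 455.2, 460.4 and 434.4 after incubation and 404.9, 417.2 and 472.8 with dexamethasone. Fresh arrays lay just above the working floor and below all explant arrays. Among the explants, dexamethasone array C was higher than every incubated array, while dexamethasone arrays A and B were lower. Entpd2 rose by 0.80 ± 0.086 on incubation (limma adjusted p = 2.47e-06), a ratio of mean signals of 1.84. Between dexamethasone and incubated arrays the difference was -0.06 ± 0.086 (limma adjusted p = 0.593), with a 95% interval of -0.25 to 0.13. With hybridization-control scaling it was -0.53 (adjusted p = 2.45e-04) and was called lower.

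Piezo1 encodes a mechanically gated cation channel. Its signals were 5162, 5080.1 and 5453 in fresh membrane, 6287, 5721 and 6505 after incubation and 10434, 9009 and 9804 with dexamethasone. The groups did not overlap, but the gap between incubated array B and fresh array C was narrow beside the gap to the dexamethasone arrays. Piezo1 rose by 0.24 ± 0.063 on incubation (limma adjusted p = 0.00429), a ratio of mean signals of 1.18. Quantile normalization ended that call (0.13, adjusted p = 0.0663), whereas hybridization-control scaling gave a larger rise (0.56, limma adjusted p = 3.47e-06).

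With dexamethasone Piezo1 rose by 0.66 ± 0.063 (limma adjusted p = 3.71e-06), a ratio of mean signals of 1.58, and the rise exceeded that of 95.4% of the genes tested. With hybridization-control scaling it was 0.18 (adjusted p = 0.0414), still called higher. On that scale it was smaller than the rise on incubation (0.56), so the order of the 2 rises depends on the scale. Of the 4 genes Piezo1 alone was called higher with dexamethasone on both scales.

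**Figure D1:**
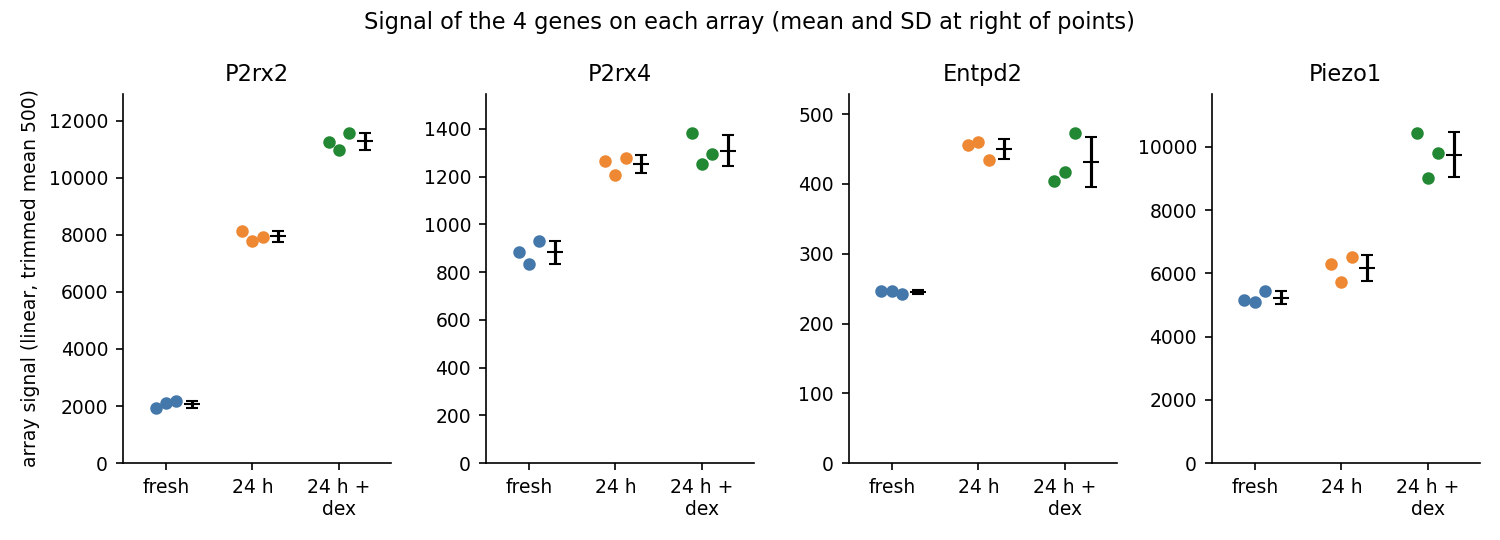
Array signal (linear, axis from 0, a separate scale for each gene) of P2rx2, P2rx4, Entpd2 and Piezo1 in fresh membrane, after 24 h in culture and after 24 h with dexamethasone (dex). Points are arrays A to C from left to right and bars at their right are the mean and SD of 3 arrays; P2rx2 goes from a mean of 2070.5 to 7941 and 11267, whereas the explant groups overlap for P2rx4 and Entpd2.

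Dexamethasone explants were also set against fresh membrane, a secondary comparison that shares arrays with both others. P2rx2 was higher by 2.43 ± 0.050, Piezo1 by 0.89 ± 0.063, Entpd2 by 0.74 ± 0.086 and P2rx4 by 0.55 ± 0.063 (limma adjusted p at most 4.71e-06). With hybridization-control scaling these were 2.28, 0.74, 0.59 and 0.41, in the same order, and still called. All 4 were called higher, where 35.4% of genes were and 42.7% were lower. For all 4 the arrays did not overlap, as for 38.5% of probe sets with the dexamethasone arrays higher (37.8% of probe sets were called higher and 38.4% lower). The P2rx2 signals of the dexamethasone group were 5.44 times those of fresh membrane as a ratio of means, and the Piezo1 signals 1.86 times. In order of level on the whole-array scale, P2rx2 and Piezo1 were lowest in fresh, intermediate in incubated and highest in dexamethasone arrays. On that scale fresh was lowest for P2rx4 and Entpd2, and their 2 explant groups did not differ beyond their spread. With hybridization-control scaling P2rx4 (-0.41) and Entpd2 (-0.53) were called lower with dexamethasone than in incubated explants, and P2rx2 (0.03) was not called.

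**Figure D2:**
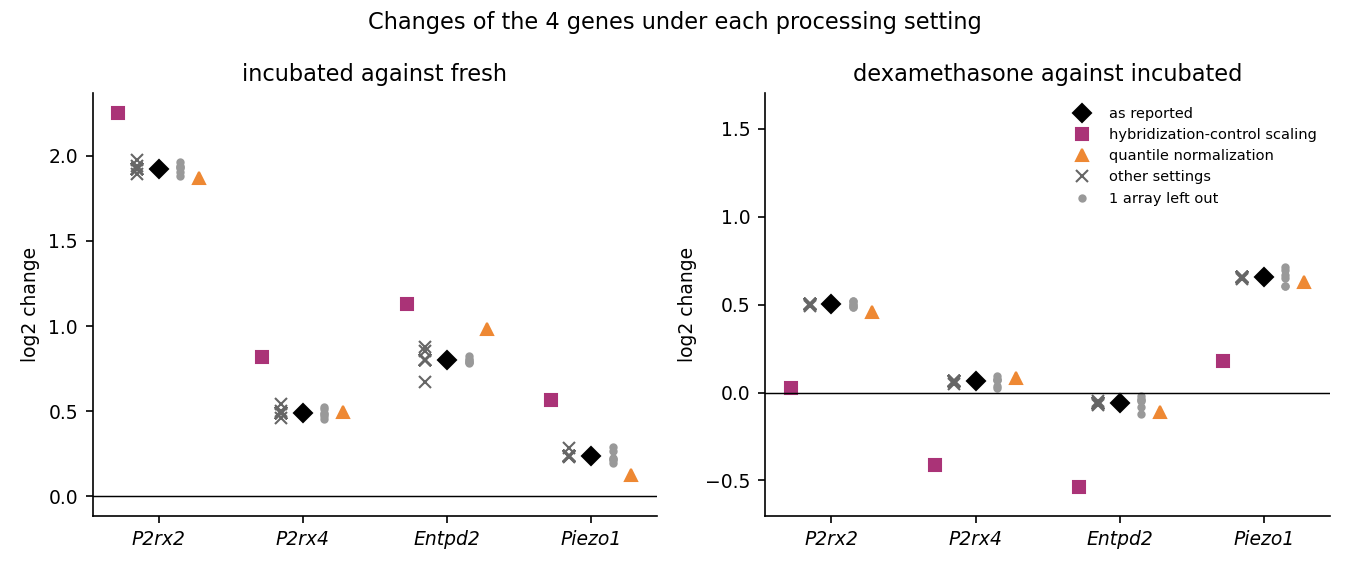
Log2 change of the 4 genes under each processing setting, for incubated against fresh (left) and dexamethasone against incubated (right). Black diamonds are the values reported, purple squares hybridization-control scaling, orange triangles quantile normalization, crosses the other settings and grey dots fits with 1 array left out; on the right the squares lie at 0.03 for P2rx2, -0.41 for P2rx4, -0.53 for Entpd2 and 0.18 for Piezo1, apart from the other marks.

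Markers of cell types in and around the membrane moved with these comparisons, and in bulk tissue fewer cells of a type and less RNA per cell cannot be told apart. Of 6 epithelial markers measured, 5 rose and 1 fell on incubation, and their summed signal went from between 35237 and 36484 to between 66169 and 67798, a ratio of 1.87. Most of that rise lay in the keratin genes Krt8 (means of 4026.3 and 18102.9) and Krt18 (5328.6 and 17607.5). Krt19 went from 1769.9 to 4295.3, Epcam from 8962.7 to 11772.9 and Cdh1 from 7390.6 to 10811.4, while Otx2 fell. With dexamethasone the sum lay between 73016 and 76727, 1.11 times the incubated sum, and 4 of the 6 rose while Epcam (-0.31) and Otx2 fell. In fresh membrane Krt8, Krt18, Krt19, Epcam, Cdh1 and Otx2 were all above 200 on every array. So were all fibrocyte, neuron, supporting cell and strial marginal markers, so these levels do not single out epithelium. Otx2, a transcription factor gene, fell by 0.88 on incubation and by 0.64 with dexamethasone. The mesothelial markers Wt1 and Upk3b lay under 200 on all arrays of every group, and so did Msln in fresh membrane. Msln, the mesothelin gene, was at least 6.01-fold higher after incubation, at 1202.8 ± 37.1, and at 941 ± 24.3 with dexamethasone (SD, n = 3).

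All 4 fibrocyte markers, all 4 neuron markers, all 4 supporting cell markers and all 3 strial marginal markers fell on incubation. The summed fibrocyte signal went from between 54209 and 55836 to between 1405.5 and 1529.7. The summed neuron signal went from between 15886 and 16936 to between 56.8 and 103.1, with Nefl, Nefm, Nefh and Snap25 all under 200. The supporting cell sum went from between 9186 and 9514 to between 667.3 and 772.8, and the strial marginal sum from between 12831 and 13536 to between 1668.6 and 1866. Of 7 mesothelial and fibroblast markers, 5 were tested, 1 rose and 4 fell, with sums of 26168 to 27363 in fresh and 10278 to 11917 in incubated arrays. Both hair cell markers tested fell, as did the 1 endothelial marker tested. The hair cell sums were 820.3 to 1026.1 in fresh and 99.5 to 114.2 in incubated arrays, and the endothelial sums 1870.7 to 2133.9 and 441.2 to 489.8. The 2 osteoblast markers lay under 200 throughout. Markers that reached 200 in fresh arrays alone, such as those of neurons, or in explants alone, such as Msln, could pass the filter only with that direction.

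Of 6 macrophage markers 5 were tested, of which 4 rose and 1 fell on incubation. The sums were 4070.8 to 4323.7 in fresh membrane, 4903.5 to 5238.6 after incubation and 5924.3 to 6084.3 with dexamethasone. Cd68, under 200 on all fresh arrays, went from a mean of 130 to 1646.8 on incubation, more than the rise of the sum. Csf1r, the highest of them in fresh membrane, fell from 2986.4 to 1364.7. With dexamethasone 2 of the 5 rose and 1, Adgre1, fell (-0.88). P2rx4 and Entpd2 are known from macrophages and glia, respectively, as well as from epithelia. Of 2 Schwann cell markers measured, Pmp22 fell by 0.23 on incubation. The Mbp probe set of highest signal rose by 0.11, but 5 of its 6 other tested probe sets were called lower, so the direction of Mbp on incubation is uncertain. Both genes rose with dexamethasone, with sums before and after of 5680.0 to 5921 and 7488.6 to 7998.1. With dexamethasone all 4 supporting cell markers rose too, to sums of 1143.6 to 1168.4, where 22.3% of all genes were called higher. Gjb6, Otog and Sox2 lay under 200 on every incubated array, and Sox2 on every dexamethasone array as well. Slc1a3, above 200 throughout, rose by 0.22 (limma adjusted p = 0.0497). Of the 3 strial marginal markers 2 fell with dexamethasone and none rose, and the mean sum was 0.696 times that of incubated arrays. These marker levels are on the whole-array scale, and hybridization-control scaling shifts the dexamethasone changes by -0.48, which is more than the rise of Krt8 (0.27), Krt18 (0.30), Krt19 (0.35) or Cdh1 (0.25). The part of these shifts in the changes of P2rx2, P2rx4, Entpd2 and Piezo1 was not tested.

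**Figure D3:**
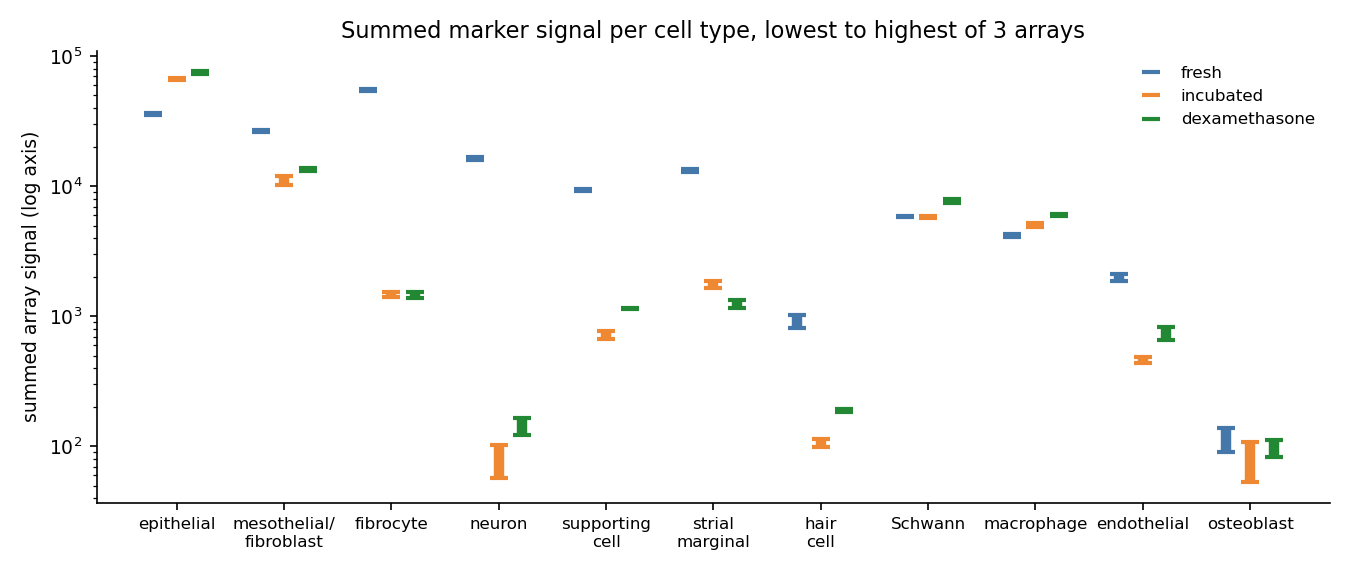
Summed array signal of the markers of each cell type (log axis), drawn from the lowest to the highest of 3 arrays in fresh, incubated and dexamethasone membrane; sums are to be compared within a cell type only. Epithelial sums rise from about 35828 to 67117 on incubation as group means, mostly through Krt8 and Krt18, while fibrocyte sums fall from 55096 to 1486.

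The purinergic signalling list covered receptors, nucleotidases, adenosine handling and ATP release. Of 46 genes listed, 38 were on the array under a single symbol and 13 were tested, 3 of them P2rx2, P2rx4 and Entpd2. On incubation 7 of the 13 rose and 3 fell, 3 missing the threshold, with a median change of 0.36 against -0.04 over all genes, of which 36.0% rose and 40.7% fell. Of the 10 others, 4 rose and 3 fell, which is near those shares. With dexamethasone 2 of the 13 rose, 3 fell and 8 did not pass, with a median of 0.05 against -0.03 over all genes, of which 22.3% rose and 28.7% fell. These counts include genes that passed the filter on low signals only through groups where they were high, P2ry6, Panx1 and Slc29a1, so that the filter fixed their direction against the groups where they were low. With hybridization-control scaling none of the 13 rose and 10 fell with dexamethasone, where 1232 of all 18913 probe sets rose and 13733 fell.

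Among receptors, P2rx2 and P2rx4 were the 2 P2X genes above the floor. P2rx1, P2rx3, P2rx5, P2rx6 and P2rx7 lay under 200 on all 9 arrays, with a highest signal of 111 in P2rx3. P2rx7, which neighbours P2rx4 on chromosome 5 in the GRCm38.p6 annotation, had a highest signal of 64.8. Of the P2Y genes, P2ry6, a receptor for UDP, was higher after incubation at least 1.07-fold, from 144.6 ± 17.8 to 214.2 ± 29.9 (SD, n = 3). P2ry2, a receptor for ATP and UTP, was 258.3 ± 22, 264.2 ± 18.8 and 273.8 ± 17.5 in the 3 groups, with a change of 0.03 ± 0.10 on incubation (limma adjusted p = 0.802), which passed as a rise with quantile normalization (0.25, adjusted p = 0.0431) and with hybridization-control scaling (0.36, adjusted p = 0.0103). P2ry6 passed the filter through the explants alone, so its rise is a description.

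Nucleotidase genes moved in opposite directions on incubation. Entpd3, which encodes a surface enzyme that splits ATP and ADP, fell by 1.53 ± 0.075 (limma adjusted p = 1.57e-09), from 2912.5 ± 188.9 to 989.1 ± 35.8 (SD, n = 3). Entpd5, which encodes a UDPase of the endoplasmic reticulum, rose by 1.30 ± 0.088 (limma adjusted p = 2.75e-08) and fell by 0.45 ± 0.088 with dexamethasone (limma adjusted p = 9.88e-04, and -0.92 with hybridization-control scaling). Entpd6 did not pass in either comparison (0.06 ± 0.14 and 0.23 ± 0.14), and hybridization-control scaling called it higher on incubation (0.38, adjusted p = 0.0248) and turned the second change to -0.25. Entpd2 and Entpd3 therefore differed in direction, with changes of 0.80 and -1.53 on incubation, and both kept their direction under the 3 other scalings tried. Entpd3 with dexamethasone was -0.19 ± 0.075 (limma adjusted p = 0.0532), and it was called lower with median centring and with hybridization-control scaling.

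Entpd1, Entpd7 and Entpd8 lay under 200 on every array. Nt5e, which encodes the enzyme that makes adenosine from AMP, reached 202.7 on 1 fresh array and was not tested. Its means were 167.2 ± 30.9 in fresh membrane, 56.5 ± 29.2 after incubation and 55.6 ± 8.2 with dexamethasone (SD, n = 3). Fresh arrays were the highest, and the explant groups overlapped.

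In adenosine handling, the transporter gene Slc29a1, which passed the filter through fresh arrays alone, was at least 1.37-fold lower after incubation, and the kinase gene Adk fell by 0.45 ± 0.053 (limma adjusted p = 5.08e-06). Hybridization-control scaling ended the Adk call, and 1 other Adk probe set went the other way past the test. Slc29a3 did not pass on incubation (0.03 ± 0.089, called higher at 0.36 with hybridization-control scaling) and fell by 0.23 ± 0.089 with dexamethasone (limma adjusted p = 0.0428, and -0.71 with hybridization-control scaling).

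Among ATP release routes, Panx1, a pannexin channel gene, was at 105.9 ± 24.8 in fresh membrane, 337.7 ± 53.7 after incubation and 154.4 ± 20.4 with dexamethasone (SD, n = 3). All fresh and all dexamethasone arrays lay under 200. The incubated mean was at least 1.69-fold that of either other group, a bound against the floor. Panx1 passed the filter through its incubated arrays alone, so this difference is a description and not a test. Panx2 exceeded 200 in fresh arrays only, on fewer than 3 of them, with a fresh mean of 225 and an incubated mean of 28.6, and was not tested. Lrrc8a, which encodes a subunit of the volume-regulated anion channel, rose by 0.36 ± 0.052 on incubation and by 0.19 ± 0.052 with dexamethasone (limma adjusted p at most 0.00967). The second of these turned to -0.29 with hybridization-control scaling.

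The mechanosensitive channel list had 17 genes, of which 16 were on the array and 8 were tested, Piezo1 and Lrrc8a among them. On incubation 4 rose, 3 fell and 1 did not pass, with a median change of 0.00 against -0.04 over all genes, and these counts are near the shares of 36.0% and 40.7% over all genes. With dexamethasone 4 rose, 1 fell and 3 did not pass, with a median of 0.19 against -0.03, beside 22.3% and 28.7% over all genes. Without the chosen gene Piezo1, 3 of 7 rose and 1 fell. The filter fixed the direction of Tmem63b, which is among the falls on incubation and the rises with dexamethasone. Rises with dexamethasone numbered 3 with quantile normalization or median centring, and 3 to 4 with 1 array left out. Leaving out incubated array C gave 2 falls with dexamethasone. With hybridization-control scaling 1 of the 8 rose and 5 fell, where 1232 of all 18913 probe sets rose and 13733 fell.

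Trpv4, a calcium-permeable channel gated by swelling and stretch, was 765 ± 34.4, 970.1 ± 62.4 and 1481.6 ± 14.9 in fresh, incubated and dexamethasone arrays (SD, n = 3), each group above the one before without overlap. Trpv4 rose by 0.33 ± 0.064 on incubation (limma adjusted p = 4.24e-04) and by 0.60 ± 0.064 with dexamethasone (limma adjusted p = 9.01e-06), beside 0.24 and 0.66 for Piezo1. With hybridization-control scaling the first Trpv4 change was 0.66 (limma adjusted p = 1.63e-06) and the second 0.12 (adjusted p = 0.199). The stretch-sensitive potassium channel gene Kcnk2 fell by 2.49 ± 0.093 on incubation (limma adjusted p = 1.12e-10) and by a further 1.26 ± 0.093 with dexamethasone (limma adjusted p = 4.34e-07), and its falls were called under every scaling tried, the second at -1.74 with hybridization-control scaling. Its mean signals were 2707.1, 455.4 and 171.9 in fresh, incubated and dexamethasone arrays. The last lay under the working floor, which limits how the size of the second fall can be read. Pkd1, the polycystin gene, fell by 0.87 ± 0.091 on incubation (limma adjusted p = 1.78e-06).

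Of the Tmem63 genes, which encode osmotically and mechanically gated cation channels, Tmem63a rose by 0.17 ± 0.065 on incubation (limma adjusted p = 0.0267). Tmem63b fell at least 1.10-fold on incubation (limma adjusted p = 0.0196) and rose at least 1.04-fold with dexamethasone (limma adjusted p = 0.0461), calls that quantile normalization and hybridization-control scaling both ended, and median centring ended the second. All incubated arrays of Tmem63b lay under 200, so the filter fixed both directions. Trpc1 did not pass in either comparison, although hybridization-control scaling called it lower with dexamethasone (-0.29, adjusted p = 0.0351). Piezo2, the other Piezo channel gene, lay under 200 on all arrays in both of its probe sets, with a highest signal of 76.8, as did the hair cell transduction genes Tmc1 and Tmc2.

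**Figure D4:**
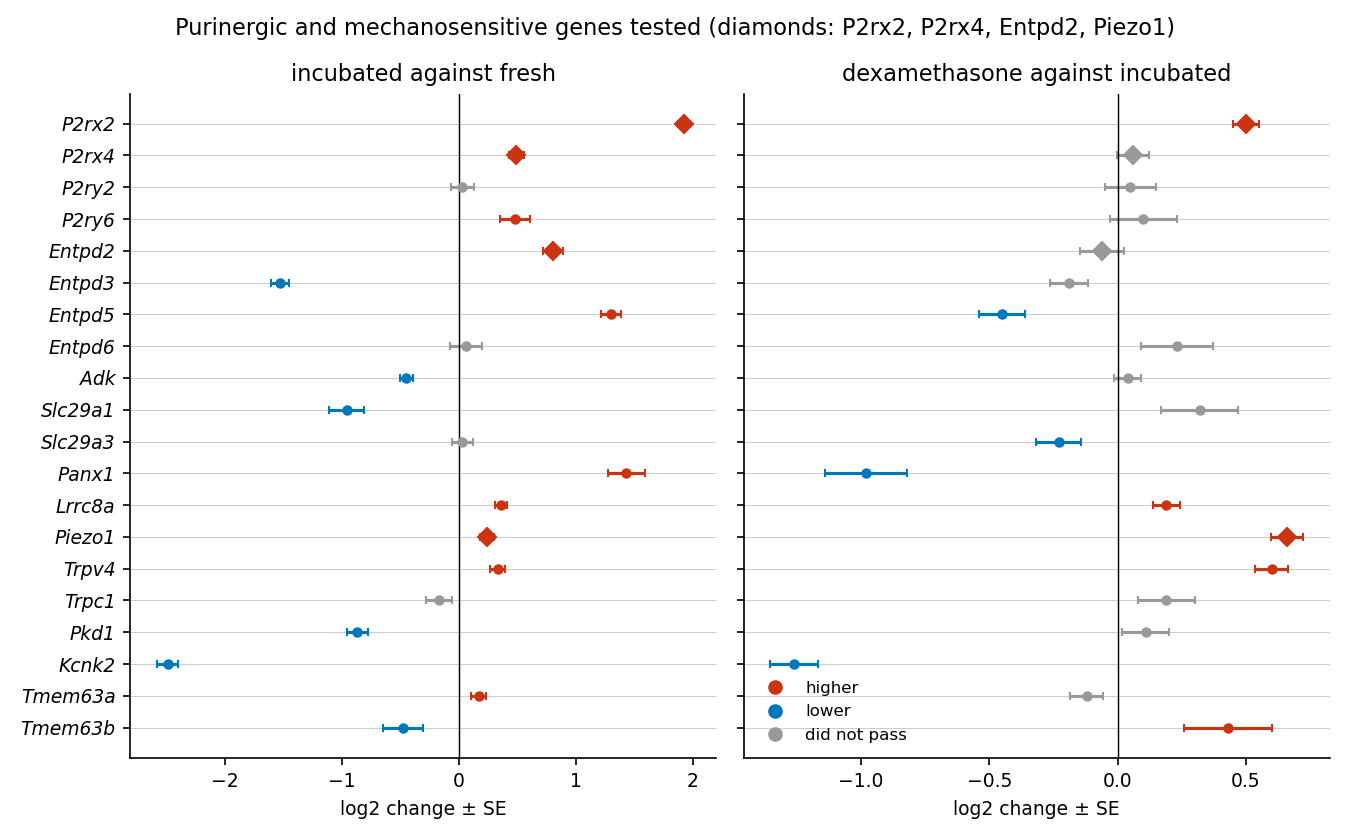
Log2 change ± SE (n = 3 arrays per group) of the 20 tested genes of both lists, for incubated against fresh (left) and dexamethasone against incubated (right), on separate axes. Red marks were called higher, blue lower and grey did not pass, and diamonds are P2rx2, P2rx4, Entpd2 and Piezo1; all 4 diamonds are red on the left and 2 are red on the right.

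The genes whose patterns lay nearest were found by Pearson's r of log2 values over the 9 arrays, which fall into 3 groups and share their scaling, so r mostly compares 3 group means. Nearest to P2rx2 were Myo1c, a myosin gene, Cxcl16, a chemokine gene, and Tpm4, a tropomyosin gene (r = 0.999 for each), and 1067 of 10238 genes had an r over 0.95 with it. Nearest to P2rx4 were Psmb2, Bid and Ppif (r = 0.994 for each), which encode a proteasome subunit, an apoptosis factor and a mitochondrial isomerase. The fresh mean of Bid was 78.6, under the working floor, beside 369.1 and 466.7 in incubated and dexamethasone arrays, so its likeness is a description. Nearest to Entpd2 were Trappc1 and Ccdc86 (r = 0.996 for each) and Nsmce2 (r = 0.994). Nearest to Piezo1 were Tex264 (r = 0.993), Pxn, the gene of the focal adhesion protein paxillin (r = 0.992), and Mbp (r = 0.990, for the probe set of highest signal only), and 134 genes had an r over 0.95 with it. Between the 4 genes themselves, r was 0.98 for P2rx2 and P2rx4, 0.95 for P2rx2 and Entpd2, 0.82 for P2rx2 and Piezo1, and 0.63 for Entpd2 and Piezo1.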

How the data were processed

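RNA from fresh, incubated and dexamethasone-treated membrane was amplified by in vitro transcription in 2 rounds and measured on 9 Affymetrix arrays of 1 colour, per the protocols in the labels. Each probe set has a deposited intensity on a linear scale, brought by the authors to a target of 500 per array over all probe sets, per the labels; the summarising software is not given in the sources used here. Of 45101 probe sets, 64 were controls, 34945 had 1 symbol, 932 several and 9160 none in the platform annotation, with symbols updated through gene IDs. Probe sets reaching 200 on at least 3 arrays were tested (18913), as log2(signal + 32), with 1 mean per group over all arrays in limma 3.58.1 (R 4.3.3), eBayes with an intensity trend and Benjamini-Hochberg adjustment. A gene was represented by its tested probe set of highest mean log2 signal. If no array of a group reached 200, the change is given as the other mean over 200. The fit was run on simulated arrays in which far fewer probe sets changed than were called here. For incubated against fresh it recovered 92.4% of log2 changes of 1.0, 59.7% of 0.5 and 13.4% of 0.25. For dexamethasone against incubated it recovered 93.9, 64.2 and 17.9%. Alternatives were other pseudocounts, filters, normalizations, variance models and array sets.

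The genes and lists were chosen with earlier results of these data known. Named were the 4 genes, genes called in a main comparison from either list, families of the 4, their 3 nearest genes by r, and markers. Tables and figures used pandas 2.3.3 and matplotlib 3.10.9.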

Additional observations from a re-analysis of the deposited data

How the results depend on the processing

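Of 216 recomputed changes of P2rx2, P2rx4, Entpd2 and Piezo1 over the 3 comparisons, 212 kept their direction and their side of the threshold, including all 72 with 1 array left out. Other filters, a fit without the trend, probe set averaging, the letter block and fits of 2 groups left each difference as it was by construction. In those settings only the adjusted p could move, so the tally says little about direction there. The exceptions were Piezo1 on incubation with quantile normalization (0.13, adjusted p = 0.0663) and, with hybridization-control scaling of dexamethasone against incubated, P2rx2 (0.027), Entpd2 (-0.53) and P2rx4, which turned to -0.41. That scaling also gave 1232 probe sets higher and 13733 lower with dexamethasone, 0 of the purinergic list higher and 10 lower, and 1 of the mechanosensitive list higher and 5 lower, and on incubation 4279 probe sets lower. The cause was not tested. With no filter, which tests more genes, falls on incubation numbered 11518 over all probe sets, 12 in the purinergic and 6 in the mechanosensitive list. Purinergic falls were then 14 in dexamethasone against fresh, and mechanosensitive falls 2 with dexamethasone. A floor of 100 gave 7 purinergic falls on incubation, 7 in dexamethasone against fresh and 5 with dexamethasone. With 1 array left out, mechanosensitive falls with dexamethasone ranged from 1 to 2, the latter without incubated array C. Arrays of the same letter did not deviate together (r from -0.062 to 0.16, 1 of 9 pairs over 0.1, and 2 of 9 arrays correlated best with their own letter). A replicate block by letter cannot move a difference of group means, because every group has each letter, so P2rx2 stayed at 1.92 and 0.50. With that block 6582 probe sets rose and 7548 fell on incubation, and no call of the 4 genes changed. Entpd2 in fresh membrane lay just above the floor, which limits how its fold can be read.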
